A study of Mus musculus with 4 samples.

Results

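The regions described here are 387 peaks from an assay in mouse embryonic stem cells that is meant to label chromatin near PML bodies. These peaks have the base composition of a CpG island but lie away from annotated transcript starts, and are called distal island peaks below. They were chosen from the authors' merged peak list of 26496 peaks by position and sequence alone. A peak had to lie on an autosome, with its midpoint more than 2 kb from the 5' end of every transcript of any type in the GENCODE M21 annotation. The 500 bp around the midpoint had to have a GC content of 55% or more and a CpG observed/expected ratio of 0.60 or more, where the ratio compares the number of CpG dinucleotides with that expected from the C and G content. The 387 peaks were 1.46% of the list and 2.99% (95% interval 2.70 to 3.30%) of its 12946 autosomal peaks away from starts. On the sex chromosomes, 9 further peaks had the same distance and composition and were left out by the autosome rule. Each share carries an exact 95% interval after Clopper and Pearson, which covers no more than counting error.

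The study used ALaP-seq, in which the peroxidase APEX, fused to PML through a knockin at the gene, biotinylates chromatin in its vicinity when hydrogen peroxide is supplied. All 4 samples were E14 embryonic stem cells of the APEX-PML knockin genotype, grown with leukemia inhibitory factor, CHIR99021 (a GSK3 inhibitor) and PD0325901 (a MEK inhibitor). The H2O2+ group had 2 samples, and the H2O2- group, in which the peroxide was omitted as a negative control, had 2. The peak list is merged and gives a chromosome, a start and an end for each peak with no height, so sample depth is unknown, and neither a spread between samples nor a contrast of H2O2+ with H2O2- could be computed. Closeness of any single region to PML bodies was therefore not tested here.

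Most CpG dinucleotides in mouse DNA are methylated and have been depleted by mutation, and CpG islands are the stretches that escaped this. Most islands sit at promoters, but others, often called orphan islands, lie within or between genes and can serve as promoters of unannotated transcripts, as enhancers or as polycomb sites. PML bodies are nuclear assemblies of the PML protein that gather SUMO-modified partners such as Sp100 and Daxx.

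The sequences of 6 distal island peaks show what the composition rule selected, and a 7th, from a peak that is not island-like, shows the contrast. Each is the plus strand of GRCm38 (mm10) in lower case with every CpG in capitals, over the central 300 bp or over the whole peak where it was shorter. The first is from the widest distal island peak, which lies between genes. The second lies at the start of a long noncoding RNA that only RefSeq annotates, and the third upstream of the cyclin D1 gene Ccnd1. The next pair lie in zinc-finger coding exons, and the last of the 6 beside a transfer RNA gene. This last peak was assigned to Mrtfb by the nearest 5' end, 180699 bp away. The intron in its label is of another gene, which is not protein-coding.
Chd2 upstream, chr7:73618336-73618635: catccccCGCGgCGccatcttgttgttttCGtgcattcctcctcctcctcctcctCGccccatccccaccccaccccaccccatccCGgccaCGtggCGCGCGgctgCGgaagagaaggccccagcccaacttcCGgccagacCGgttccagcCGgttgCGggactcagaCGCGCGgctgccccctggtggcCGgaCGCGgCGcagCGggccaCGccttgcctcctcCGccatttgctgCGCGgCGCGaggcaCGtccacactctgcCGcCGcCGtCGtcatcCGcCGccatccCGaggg
Zfp239 downstream, chr6:117879533-117879832: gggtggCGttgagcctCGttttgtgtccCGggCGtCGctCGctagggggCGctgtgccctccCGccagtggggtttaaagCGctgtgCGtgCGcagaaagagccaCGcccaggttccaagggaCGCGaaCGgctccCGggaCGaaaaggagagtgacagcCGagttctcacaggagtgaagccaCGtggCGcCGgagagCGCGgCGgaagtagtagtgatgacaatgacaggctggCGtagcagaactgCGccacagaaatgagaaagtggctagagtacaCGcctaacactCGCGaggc
Ccnd1 upstream, chr7:144943217-144943516: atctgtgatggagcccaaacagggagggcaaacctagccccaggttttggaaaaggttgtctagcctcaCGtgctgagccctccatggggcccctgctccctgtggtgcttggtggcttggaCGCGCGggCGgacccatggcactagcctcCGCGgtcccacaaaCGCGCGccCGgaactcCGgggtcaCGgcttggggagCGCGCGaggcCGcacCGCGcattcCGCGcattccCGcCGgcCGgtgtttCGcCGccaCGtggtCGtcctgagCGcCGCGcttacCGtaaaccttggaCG
Zfp771 coding exon, chr7:127254190-127254489: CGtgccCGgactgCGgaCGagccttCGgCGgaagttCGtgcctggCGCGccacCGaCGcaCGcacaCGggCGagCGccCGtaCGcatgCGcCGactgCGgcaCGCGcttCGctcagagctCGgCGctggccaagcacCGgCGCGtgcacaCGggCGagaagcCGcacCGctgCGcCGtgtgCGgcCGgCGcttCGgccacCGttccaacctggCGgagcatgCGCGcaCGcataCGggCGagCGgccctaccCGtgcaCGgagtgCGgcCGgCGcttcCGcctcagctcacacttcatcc
Sp8 coding exon, chr12:118849504-118849675: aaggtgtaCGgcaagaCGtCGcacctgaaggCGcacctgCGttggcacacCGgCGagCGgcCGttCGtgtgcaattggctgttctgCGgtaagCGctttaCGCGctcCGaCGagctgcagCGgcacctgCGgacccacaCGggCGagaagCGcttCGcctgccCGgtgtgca
Mrtfb intron, tRNA gene, chr16:13437030-13437329: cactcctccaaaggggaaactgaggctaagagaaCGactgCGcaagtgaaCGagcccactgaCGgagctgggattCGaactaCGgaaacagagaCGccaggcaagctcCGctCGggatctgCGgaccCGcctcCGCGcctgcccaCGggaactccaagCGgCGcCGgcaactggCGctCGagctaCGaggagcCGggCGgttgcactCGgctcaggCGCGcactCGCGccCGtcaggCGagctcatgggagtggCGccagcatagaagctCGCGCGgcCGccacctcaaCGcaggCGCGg
Ppcdc intron, not island-like, chr9:57431066-57431365: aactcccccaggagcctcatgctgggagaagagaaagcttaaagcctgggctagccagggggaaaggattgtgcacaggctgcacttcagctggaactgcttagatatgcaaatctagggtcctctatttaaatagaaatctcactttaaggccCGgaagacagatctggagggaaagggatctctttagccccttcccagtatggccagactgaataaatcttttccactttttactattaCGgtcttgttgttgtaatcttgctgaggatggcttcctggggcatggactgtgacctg
The printed stretch of Zfp771, which encodes a C2H2 zinc-finger protein, held 52 CpGs in 300 bp, more than any other of the 7. The Chd2 and Mrtfb stretches held 37 each, the Ccnd1 stretch 33, the Zfp239 stretch 29 and the Sp8 stretch 23 in 172 bp. The Ppcdc stretch, chosen because its composition was nearest to the medians of the other peaks away from starts, held 2.

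By construction the distal island peaks were rich in CpG, and the values the rule used are given as description. Their median GC content over 500 bp was 63%, against 48.6% at the other 12559 peaks away from starts and 64.4% at the 7672 island-like peaks within 2 kb of a start. Their median CpG observed/expected ratio was 0.751, against 0.20 and 0.821, and they held a median of 36 CpGs in 500 bp, against 6 and 42. The highest ratio was 1.272, with 81 CpGs in 500 bp, at the coding exon of Zfp771. It was followed by coding exons of Fbxl22 (1.239), an F-box protein gene, and of Cacna1a (1.158), which encodes a neuronal calcium channel subunit. The others of the 10 highest were Hoxc9 (1.105), Prdm2 (1.096), Filip1l (1.086), Garem2 (1.071), Mrtfb (1.060), Gpr84 (1.056) and Sf3b5 (1.019). The peak nearest inside the distance limit lay in Sp8, 2004 bp from a start, and the nearest outside lay by Rpn1, 1978 bp from a start. At the limit of the ratio, peaks of Asb16 and Cln6 were just inside with 0.6011 and 0.6015, and peaks of Mum1 and Hook1 just outside with 0.5999 and 0.5995. At the GC limit, peaks of Inhba, Oxgr1 and Scd1 were inside at exactly 55%, and peaks of Sh3pxd2a, Sgsm1 and Cdx2 outside at 54.8%. The Cdx2 peak outside was a separate one from the Cdx2 intron peak described below.

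The islands at the distal peaks were narrow compared with those at promoters. CpG density averaged 8.15 per 100 bp at the centre of the distal island peaks and 8.99 at the island-like peaks near starts. At 500 to 1000 bp from the centre it had dropped to 2.36 at the distal island peaks and to 3.30 near starts. At 3 to 5 kb the order was turned, with 1.67 per 100 bp around the distal island peaks, 1.15 around the peaks near starts and 1.14 around the other peaks away from starts. Unmasked island-like windows away from starts that held no peak had 1.66 at this distance, close to the value around the distal island peaks. The GC content at 3 to 5 kb was 48.0% around the distal island peaks, 48.3% around the windows without a peak and 45% around the island-like peaks near starts. The island stretch under a distal island peak, the run of overlapping 500 bp windows that met the composition rule, had a median length of 1000 bp, against 1250 bp near starts.

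**Figure D1:**
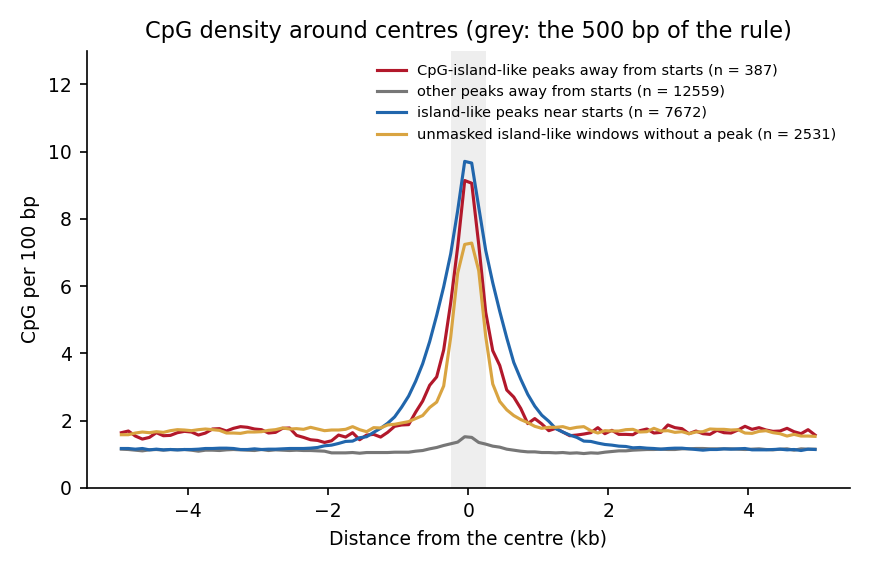
Mean number of CpG dinucleotides per 100 bp (vertical axis) by distance from the centre in kb (horizontal axis), for 387 distal island peaks, 12559 other peaks away from starts, 7672 island-like peaks near starts and 2531 unmasked island-like windows without a peak. The grey band is the 500 bp used by the rule; the peak of the distal island curve is narrower than that of the curve near starts, and its flanks at 3 to 5 kb (1.67) lie with those of windows without a peak (1.66).

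Width was the sole measurement per peak that the rule did not use. The distal island peaks had a median width of 225 bp (95% interval of the median 208 to 256, quartiles 156 and 374, range 94 to 1132 bp). The other peaks away from starts had a median of 211 bp (208 to 214), and the interval of the distal island peaks reached down to within it. The island-like peaks near starts were wider, with a median of 262 bp (257 to 267), above the upper bound for the distal island peaks. Within the distal island peaks, those between genes were the widest, with a median of 263 bp (234 to 295, n = 223). Those in coding exons had a median of 190 bp (170 to 216, n = 74) and those in introns 198 bp (168 to 258, n = 67). The intervals of the between-gene and coding-exon medians did not overlap, and that of introns overlapped both. Peaks in noncoding exons (198 bp, n = 10) and untranslated regions (180 bp, n = 13) were few. Width followed neither composition nor distance closely: across the 387 peaks, Spearman's rho of width was 0.12 with the CpG ratio, 0.12 with GC content, 0.01 with the length of the island stretch and 0.01 with the distance to the nearest start. These are descriptions across peaks of 1 list, which share their libraries and peak calling.

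**Figure D2:**
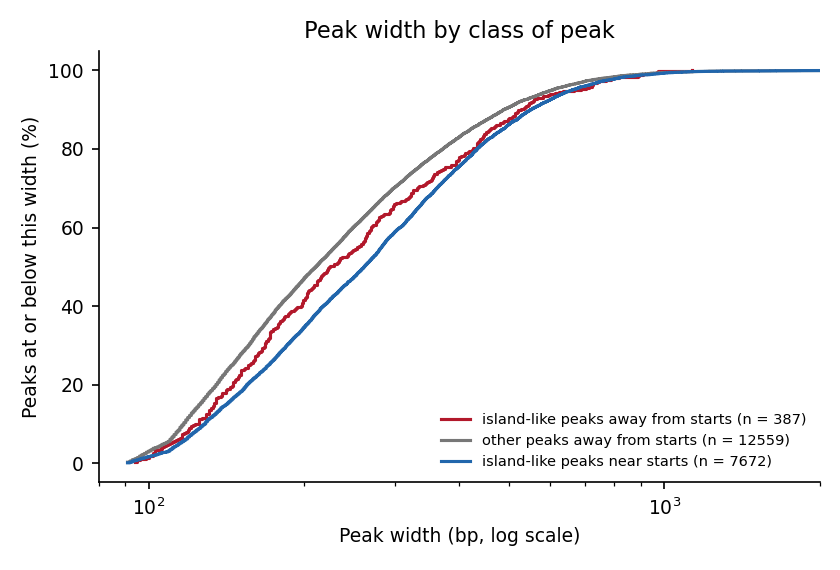
Share of peaks at or below a given width (vertical axis, %) against width in bp on a log scale (horizontal axis), for the distal island peaks (n = 387), the other peaks away from starts (n = 12559) and the island-like peaks near starts (n = 7672). The curve of the distal island peaks runs between the others, with medians of 225, 211 and 262 bp in that order of groups.

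The widest distal island peaks lay mostly between genes. At 1132 bp, the widest was on chr7:73617920-73619051, 76656 bp upstream of Chd2, a chromatin remodeller gene, and 8949 bp from the nearest transcript start of any kind. The next were a 972 bp peak by Zfp239, a 966 bp peak 9543 bp upstream of the ephrin receptor gene Epha2, and a 936 bp peak 23078 bp upstream of the kinase gene Rps6ka1. A 908 bp peak on chr5:147304299-147305206 lay in an intron of Cdx2, which encodes a homeobox factor of trophectoderm and gut, 2517 bp from its start. An 894 bp peak was assigned to Cxxc5, which encodes a protein with a CXXC domain that binds unmethylated CpG. It lay between genes, 58709 bp downstream of the Cxxc5 start and 2231 bp from the nearest start of any transcript. Peaks of 890, 816, 787 and 770 bp were assigned to Rbfox2, Foxk1, C87436 and Gm31371. Of the 20 widest, a pair was assigned to Ptma, which encodes prothymosin alpha, with widths of 747 and 725 bp, 22478 and 39215 bp upstream of it. The others were 740 bp by the imprinted cell-cycle inhibitor gene Cdkn1c, 728 bp each by Sp8 and by Scd2, 723 bp by Rbx1, 713 bp by Zfp518a, 704 bp by Wnt7b, 690 bp by Glis2 and 669 bp by Gclc.

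**Figure D3:**
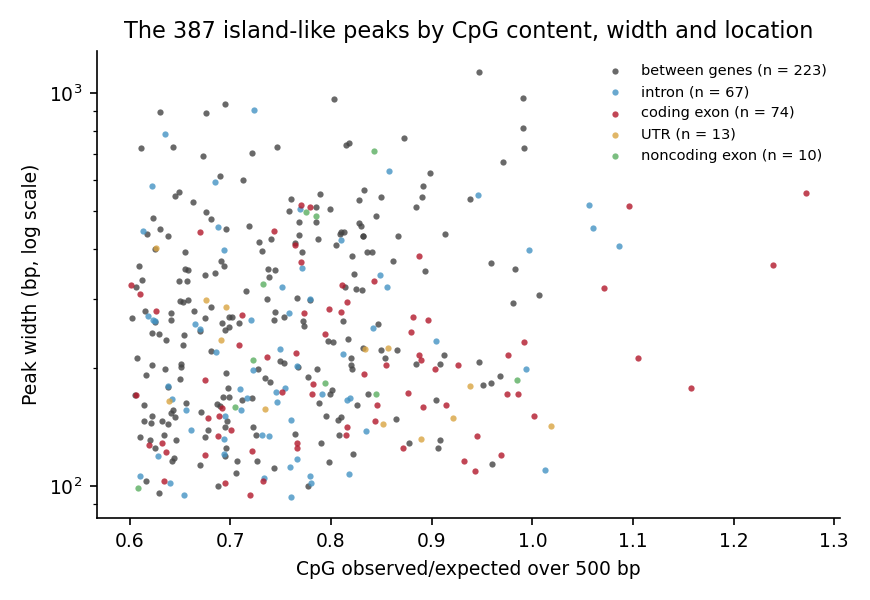
Each point is 1 of the 387 distal island peaks, placed by the CpG observed/expected ratio over 500 bp (horizontal axis) and the peak width in bp on a log scale (vertical axis), and coloured by location. Width shows little relation to the ratio (Spearman's rho 0.12), the highest ratios are mostly coding exons (red), and the widest peaks are mostly between genes (dark grey).

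The distal island peaks were placed by their midpoint. Between genes lay 223 of the 387 (57.6%, 52.5 to 62.6%), against 51.6% of the other peaks away from starts. Introns held 67 (17.3%, 13.7 to 21.5%) against 44.0%, and coding exons 74 (19.1%, 15.3 to 23.4%) against 1.27%. Untranslated regions held 13 (3.36%) against 1.86% and noncoding exons 10 (2.58%) against 1.32%. A 3' end of a transcript lay within 500 bp of 51 (13.2%, 9.97 to 17%) against 3.34%. Coding exons also made up 1189 of the 3379 mostly unmasked island-like stretches away from starts that are counted below. The distal island peaks also lay nearer to starts than the others, with a median of 6369 bp (5583 to 7392) against 10781 bp. Island-like sequence itself often lay near starts: 1286 of the 3379 mostly unmasked stretches were up to 5 kb from one. Of the 387, 149 (38.5%) lay at 2 to 5 kb, 117 (30.2%) at 5 to 10 kb, 113 (29.2%) at 10 to 50 kb, 7 at 50 to 100 kb and 1 beyond, 236736 bp from any start and assigned to Cbln4.

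The widest of the 74 in coding exons, the 558 bp peak on chr7:127254061-127254618, lay in the coding exon of Zfp771. Peaks of 520, 517 and 514 bp lay in coding exons of Sp6, a factor of the Sp family, Prdm2, which encodes a PR-domain zinc-finger protein, and Zfp777. Peaks of 446, 442 and 411 bp lay in Lrrc14, in Disp2, a relative of the hedgehog release protein Dispatched, and in Pitx1, a homeobox gene of the hindlimb. Next came peaks of 385 bp in Kcng2, a potassium channel subunit gene, 372 bp in Rax, a homeobox gene of the eye, and 366 bp in Fbxl22. The median coding-exon peak of the other peaks away from starts was 179 bp wide (165 to 197, n = 159), an interval that overlaps that of the coding-exon island peaks.

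A start absent from GENCODE M21 was present in RefSeq for some of the distal island peaks, so that for these the description as peaks without an annotated start holds for the GENCODE annotation only. A RefSeq transcript start lay within 500 bp of 51 of the 387 (13.2%, 9.97 to 17%), against 2.91% (2.63 to 3.22%) of the other peaks away from starts. Within 2 kb the counts were 85 (22.0%) against 6.35%. Of the 51 starts, 21 were of messenger RNAs, 20 of long noncoding RNAs, 9 of transfer RNAs and 1 of another transcript. By source, 12 were curated RefSeq models, 30 were predicted and the 9 transfer RNA genes came from a separate annotation. The peak by Zfp239 lay 50 bp from the curated start of the long noncoding RNA Gm38882. Starts of predicted models lay 9 bp from the Prdm2 peak, 11 bp from a 258 bp peak in Kdm6b, which encodes a demethylase of the polycomb mark, and 25 bp from a 198 bp peak in the cadherin gene Fat1. A peak by Pla2g10 lay 5 bp from the curated start of A930007A09Rik. A 488 bp peak lay 119 bp from a predicted RefSeq start of Mga, 24596 bp upstream of the GENCODE start of that Max-binding factor's gene. Distal island peaks with a RefSeq start within 500 bp had a median width of 221 bp (183 to 294) and those without 229 bp (208 to 260), with intervals that overlap.

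Transfer RNA genes, which RNA polymerase III transcribes from short promoters inside the gene, accounted for 9 of these starts and were looked at because of that count. The 9 had a transfer RNA gene within 500 bp. They included the 454 bp peak on chr16:13436953-13437406, 143 bp from the gene n-TTcgt5. That peak lay in no protein-coding gene and was assigned to Mrtfb, whose start was 180699 bp away. More widely, 230 of 386 autosomal transfer RNA genes in RefSeq (59.6%, 54.5 to 64.5%) had a peak of any kind within 500 bp. Of the 274 that lay more than 2 kb from every GENCODE start, 153 did (55.8%, 49.7 to 61.8%), and 9 of the 274 (3.28%, 1.51 to 6.14%) had a distal island peak. By peaks, 2.33% (1.07 to 4.37%) of the distal island peaks had a transfer RNA gene within 500 bp. Of the other peaks away from starts 116 did (0.924%, 0.764 to 1.11%), with intervals that overlap. Transfer RNA genes were 9 of the 51 RefSeq starts at distal island peaks and 116 of the 366 at the others. The share of genes with a peak was not computed for other kinds of start. Transfer RNA gene families are repeated in the genome, so single genes of a family are not independent.

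The question of how often an island-like stretch away from starts carried a peak was put to the whole autosomal genome. A scan with 500 bp windows in steps of 50 bp found 7617 such stretches by the same composition and distance, and 620 (8.14%, 7.54 to 8.78%) shared at least 1 bp with a peak. This count exceeds 387 because a stretch can overlap a peak whose own midpoint window misses the rule. Within 2 kb of a start, 7965 of 15046 stretches held a peak (52.9%, 52.1 to 53.7%). For comparison, of 500 bp tiles away from starts without island composition, 0.447% shared a base with a peak, against 9.52% (8.69 to 10.4%) of island-like tiles. Tiles with the GC content of an island but fewer CpGs stood at 2.44%, and tiles with the CpG ratio but less GC at 1.79%. This order depended on repeat-masked sequence. In tiles with at most 50% of bases masked, the shares were 2.83% (2.69 to 2.96%) and 3.28% (2.95 to 3.65%). Of island-like tiles with so little masking, 18.8% (17.2 to 20.4%) shared a base with a peak. Among all tiles of 55% GC or more, masked ones included, the share was 1.63% at a CpG ratio under 0.2, 2.55% at 0.2 to 0.4, 4.08% at 0.4 to 0.6, 8.08% at 0.6 to 0.8, 16.5% (13.9 to 19.4%) at 0.8 to 1.0 and 10.1% (6.16 to 15.3%) above that. In those with at most 50% of bases masked, the shares in the same order were 1.82%, 2.72%, 7.03%, 17.3%, 23.7% (20.1 to 27.6%) and 18.3% (11.4 to 27.1%).

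Reads had been mapped to a repeat-masked genome. Masking was read here from the reference sequence and was not compared with the mask used in mapping. By this reading 2338 of the 12559 other peaks away from starts were themselves mostly masked. Of the 7617 stretches, 4238 were mostly masked, that is over 50% of their bases. Of these, 19 held a peak (0.448%, 0.270 to 0.699%). Of the 3379 mostly unmasked stretches 601 did (17.8%, 16.5 to 19.1%), and this is the share against which the classes below are read. Stretches between genes held a peak in 327 of 1192 cases (27.4%, 24.9 to 30.1%), those in introns in 126 of 814 (15.5%, 13.1 to 18.1%) and those in coding exons in 110 of 1189 (9.25%, 7.66 to 11.0%). The intervals of these 3 classes do not overlap. Island-like coding exons were thus frequent among the distal island peaks, while their own share with a peak was the lowest of the 5 locations. Stretches of 500 bp held a peak in 8.22% of cases and those of over 1000 to 2000 bp in 29.5%, though longer stretches also offer more bases to overlap. The share went from 20.3% (18.1 to 22.6%) at 2 to 5 kb from a start to 7.35% (3.58 to 13.1%) beyond 50 kb. Of stretches with a RefSeq start within 500 bp 32.3% (26.5 to 38.5%) held a peak, against 16.6% (15.4 to 18%) of those without. By source the share was 39.0% (24.2 to 55.5%) of 41 at curated starts and 23.9% (17.9 to 30.7%) of 184 at predicted starts. At starts of other sources it was 87.0% (66.4 to 97.2%) of 23. The interval at predicted starts overlapped that of stretches without a RefSeq start. The gap between locations was kept without RefSeq starts, at 26.1% between genes, 14.7% in introns and 8.85% in coding exons. By chromosome the share lay between 10.8% (6.73 to 16.2%) on chromosome 10 and 30.2% (22.7 to 38.6%) on chromosome 13. On chromosome X it was 7.23% (2.70 to 15.1%, 6 of 83).

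**Figure D4:**
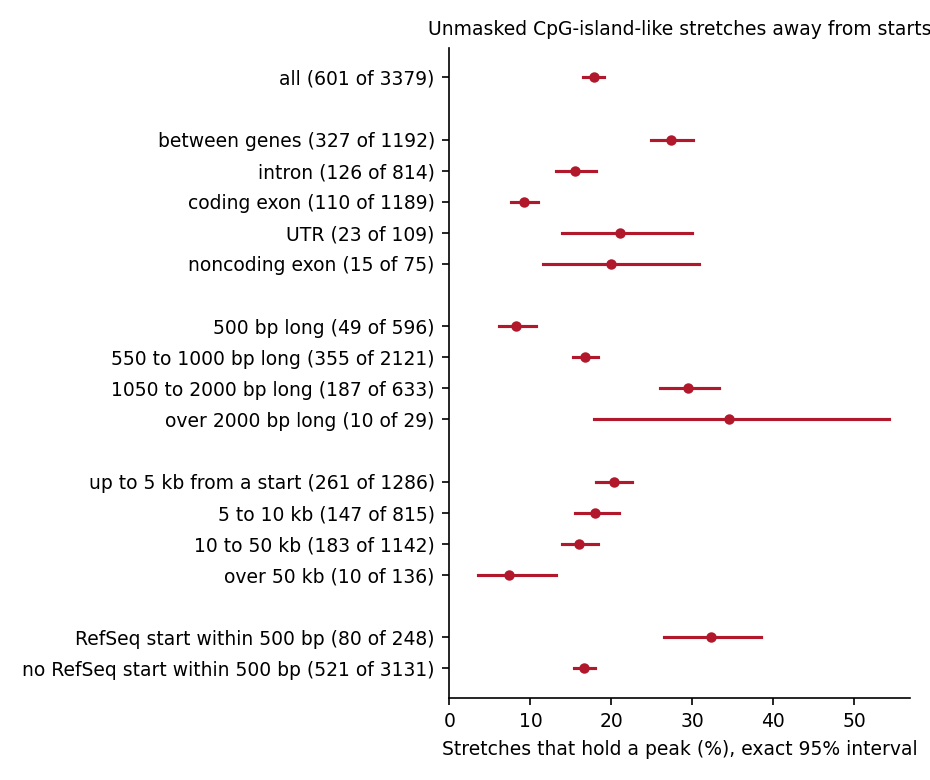
Share of mostly unmasked island-like stretches away from starts that held a peak (horizontal axis, %), with the exact 95% interval as a line, for all 3379 stretches and by location, length, distance to the nearest GENCODE start and presence of a RefSeq start; the counts stand in the labels. Stretches between genes lie highest among the locations (27.4%) and coding exons lowest (9.25%).

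The peaks were assigned to protein-coding genes, by the gene body that held the midpoint or otherwise by the nearest 5' end. This gave 352 genes, 1.69% of 20780 autosomal protein-coding genes. Of these, 322 had 1 distal island peak, 26 had 2, 3 had 3 and 1 had 4. An assignment names a neighbour and does not say that the gene is regulated by the region. Because genes with much CpG-rich sequence around them can be assigned more peaks, each list below is given both by genes and by its share of mostly unmasked stretches with a peak, to be read against 17.8%.

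Of the genes listed as targets of FGF, LIF and WNT signals, which this medium inhibits or supplies, 8 of 27 genes had a distal island peak (29.6%). Ccnd1 had 2, of 545 bp on chr7:144943095-144943639 and 497 bp on chr7:144942230-144942726, at 3442 and 2553 bp upstream of its start. Spred2, which encodes an inhibitor of Ras and ERK signalling, had a 468 bp peak 3885 bp upstream, and the WNT target gene Sp5 had a 433 bp peak 2825 bp upstream. Lef1, encoding a nuclear effector of WNT signals, had a 394 bp peak 4371 bp upstream, and Socs3, a LIF-induced inhibitor of cytokine signals, a 355 bp peak 6444 bp downstream of its start. Id3 and Spry2 had peaks of 268 and 263 bp, and Smad7 a peak of 233 bp. Of the 27 unmasked stretches assigned to the genes of this list, 10 held a peak (37.0%, 19.4 to 57.6%), an interval that lies just above 17.8%. Other peaks away from starts were assigned to 22 of the 27 genes (81.5%), against 26.5% of all autosomal protein-coding genes. Across the lists this share ran from 10.7% at protocadherin genes to 81.5%. The list of targets was made with earlier results of these data known, so its shares are no independent evidence.

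Developmental transcription factors, most of which are silent in embryonic stem cells and have large islands, had a distal island peak at 13 of 69 genes (18.8%). After Cdx2 (908 bp), the widest were a 601 bp peak 2884 bp upstream of Msx2, a homeobox gene of limb and skull, and a 386 bp peak by Foxa1, a pioneer factor gene of endoderm. Sox1, Nkx2-1, Foxd3, Neurog1 and Six3, which specify neural and other lineages, had peaks of 263, 251, 225, 203 and 201 bp. The others were Dlx2, Msx1, Foxc1, Nkx2-5 and Pax7, the last 3 with 2 peaks each, all of them 166 bp wide or less. Of the 162 unmasked stretches assigned to this list 36 held a peak (22.2%, 16.1 to 29.4%), an interval that includes 17.8%. The high share by genes thus goes with a large number of stretches per gene.

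The other lists had a smaller share of genes with a distal island peak. Genes of polycomb and trithorax proteins had one at 4 of 35, namely Cbx8 (299 bp), Kdm6b (258 bp), Ezh2 (199 and 144 bp, both over 50 kb upstream) and Cbx7 (197 bp), and 6 of their 30 unmasked stretches held a peak (20%, 7.71 to 38.6%). Zinc-finger genes with the Zfp prefix had one at 16 of 358 (4.47%), and 23 of their 112 unmasked stretches held a peak (20.5%, 13.5 to 29.2%). Core pluripotency genes had 2 of 23, a 411 bp peak assigned to Klf4, 17481 bp downstream of its start, and a 235 bp peak 10977 bp upstream of Gbx2, and 5 of their 23 unmasked stretches held a peak (21.7%, 7.46 to 43.7%). Imprinted genes had 3 of 39, at Cdkn1c (740 bp), Trappc9 (395 bp) and H13 (297 bp, in an untranslated region), with a peak at 3 of 14 stretches (21.4%, 4.66 to 50.8%). The Hox clusters had 2 of 39, a 375 bp peak by Hoxc12, 2249 bp from the nearest start, and a 212 bp peak in a coding exon of Hoxc9, with a peak at 6 of 25 stretches (24%, 9.36 to 45.1%). Neuronal genes had 2 of 25, Cacna1a and Shank2, with a peak at 3 of 15 stretches (20%, 4.33 to 48.1%). Replication-dependent histone genes had 1 of 67, Hist2h2bb, with a peak at 3 of 6 stretches (50%, 11.8 to 88.2%). For each of these lists with a distal island peak the interval of the stretch share includes 17.8%. No distal island peak was assigned to the 19 genes of PML body components, the 17 of DNA methylation and demethylation, the 21 of heterochromatin, the 20 of heat shock chaperones, the 19 liver genes or the 56 protocadherin genes. Most of these lists had few unmasked stretches, and some of those stretches did overlap a peak: 1 of 3 for PML body components, 1 of 2 for DNA methylation, 1 of 3 for heterochromatin, 1 of 3 for chaperones, 0 of 2 for liver and 1 of 16 for protocadherins. A count of 0 genes in these lists is therefore no sign of absence.

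Some genes had several distal island peaks close together. Sp8, which encodes an Sp-family factor of limb outgrowth, had 4 within 50 kb, of 728, 434, 172 and 161 bp. The first and the last lay 9461 and 3108 bp upstream of its start, the 172 bp peak in its coding exon 3261 bp downstream, and the 434 bp peak 8873 bp downstream. Uncx, a homeobox gene, had 3 in a single coding island of 1750 bp, of 203, 198 and 125 bp. Irf2bpl had 3, of 546, 123 and 102 bp, the narrower 2 within 1 coding island of 3800 bp. Pdia4 had 3 assigned, of 438, 242 and 100 bp, which lay 34985 to 73540 bp downstream of its start and each had near-identical copies in the genome (16, 13 and 13). In all, 84 of the 387 (21.7%, 17.7 to 26.2%) had another distal island peak within 50 kb. The matching share was not computed for island-like stretches, so whether these peaks cluster more than such sequence does was not tested. A peak of any kind lay within 50 kb of 87.6% (83.9 to 90.7%), against 83.3% of the other peaks away from starts. The median gap to the next peak was 6799 bp (5470 to 7825), against 6679 bp.

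Most distal island peaks lay in sequence that is not masked as repeats. No base was masked in 250 of the 387 (64.6%, 59.6 to 69.4%), against 29.3% of the other peaks away from starts, and 11 (2.84%) were mostly masked against 18.6%. At the island-like peaks near starts these shares were 59.9% and 0.209%. A near-identical copy of the central 150 bp elsewhere in the genome, at 95% identity over 80% of it or more, was found for 14 (3.62%, 1.99 to 6%), against 10.7%. In 4 of them a copy lay within 500 bp of an annotated start of any transcript type. These were a 212 bp peak assigned to Begain, a 182 bp coding-exon peak of Slc25a51, a 163 bp peak assigned to Cbln4 and a 147 bp peak assigned to Gm21119. Whether reads from the copy and from the peak can be told apart was not tested. The Cbln4 peak is the one farthest from any start, and it had 19 copies.

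Short words that are part of known binding sites were counted on both strands of the 500 bp around each midpoint. The comparison group was 2531 mostly unmasked island-like windows away from starts without a peak, which had a median GC content of 59.2% and CpG ratio of 0.674, both below those of the distal island peaks. The words that stood out are therefore also given within classes of GC content, of CpG ratio and of location. A match is a run of letters and not a bound site.

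GC-rich words were frequent in the distal island peaks. GGGCGG, the GC box of Sp and Klf factors, was found in 288 of the 387 (74.4%, 69.8 to 78.7%), in 50.5% (48.6 to 52.5%) of windows without a peak, in 17.5% of the other peaks away from starts and in 86.3% (85.5 to 87.0%) of island-like peaks near starts. GGGNGGG, a pair of G runs that can overlap a GC box, was found in 71.6% (66.8 to 76.0%) against 57.9% (56.0 to 59.9%) of windows without a peak. CCGGAAG, the site of ETS factors, was in 56 (14.5%, 11.1 to 18.4%) against 8.69% (7.62 to 9.86%) of windows without a peak, and in 26.0% of island-like peaks near starts. GCGCATGCG, part of the Nrf1 palindrome, was in 14 (3.62%, 1.99 to 6%) against 0.83% (0.514 to 1.27%) and in 5.36% near starts. For these words the shares of distal island peaks lay above those of windows without a peak with intervals that did not overlap. For the first 3, the shares also lay below those near starts.

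The gap in the GC box was also seen between windows of like GC content. At a GC content of 55 to 60%, GGGCGG was in 71 of 115 distal island peaks (61.7%, 52.2 to 70.6%) and in 39.4% (36.8 to 42.0%) of 1414 windows without a peak. At 60 to 65% the shares were 71% (62.7 to 78.4%) and 57.6% (53.7 to 61.6%), and at 65% or more 88.8% (82.2 to 93.6%) and 73.4% (69.3 to 77.2%). By location, the GC box was in 88.1% (77.8 to 94.7%) of the 67 intronic distal island peaks against 47.2% (43.2 to 51.3%) of intronic windows without a peak, in 75.8% (69.6 to 81.3%) against 61.9% (58.4 to 65.4%) between genes and in 58.1% (46.1 to 69.5%) against 42.6% (39.5 to 45.7%) in coding exons. In each of these classes of GC content or location the intervals did not overlap. When the 3 GC classes were also divided at a CpG ratio of 0.75, the share was higher in the distal island peaks in all 6 classes, and the intervals overlapped in 2 of them. These were 60 to 65% GC with a ratio under 0.75, at 66.2% (54.3 to 76.8%) against 59.5% (54.9 to 64.1%), and 65% GC or more with a ratio under 0.75, at 89.5% (75.2 to 97.1%) against 72.1% (64.9 to 78.5%).

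The gaps in the other words held in fewer classes. The pair of G runs was in 83.6% (72.5 to 91.5%) against 63.1% (59.2 to 67%) in introns and in 83.6% (76.2 to 89.4%) against 68.3% (64.1 to 72.4%) at 65% GC or more, without overlap of the intervals. Between genes it was in 78.0% (72.0 to 83.3%) against 73.6% (70.3 to 76.6%) and at 55 to 60% GC in 56.5% (47.0 to 65.7%) against 53.0% (50.4 to 55.7%), with overlapping intervals. The ETS site had overlapping intervals in every GC class: 17.4% (11.0 to 25.6%) against 9.48% (8 to 11.1%) at 55 to 60%, 10.9% (6.21 to 17.3%) against 7.57% (5.61 to 9.94%) at 60 to 65%, and 15.7% (9.97 to 23.0%) against 7.86% (5.65 to 10.6%) at 65% or more. By location it was in 14.8% (10.4 to 20.1%) against 6.51% (4.89 to 8.48%) between genes, without overlap, in 16.4% (8.49 to 27.5%) against 7.31% (5.38 to 9.65%) in introns and in coding exons in 12.2% (5.71 to 21.8%) against 10.5% (8.70 to 12.6%), both with overlap. The Nrf1 word rests on 14 peaks, 9 of them between genes (4.04%, 1.86 to 7.52%, against 0.639%, 0.208 to 1.48%), and its intervals overlapped in every GC class.

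For TGCCGC, the site of Zfp57 that guards imprints, the intervals nearly met, at 37.2% (32.4 to 42.2%) against 30.4% (28.6 to 32.3%) in windows without a peak. CACGTG, the E-box, was in 19.9% (16.0 to 24.2%) against 15.8% (14.4 to 17.2%). CCANNAGGG, part of the CTCF site, was in 14.7% (11.4 to 18.7%) against 10.1% (8.97 to 11.4%), with a share of 13.3% at the other peaks away from starts. The CCAAT box was in 37.2% (32.4 to 42.2%) against 31.8% (30.0 to 33.6%), with overlapping intervals. Words for Yy1, Zfp143, Rest and the CRE were also searched, and their intervals overlapped too. A word of the transfer RNA B box, added after seeing the data, was in 2.84% against 2.73%.

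Most words of the pluripotency network were less frequent than at the other peaks away from starts. ATTTGCAT, the octamer of Pou5f1, was in 10 of the 387 (2.58%, 1.25 to 4.70%), against 6.85% (6.41 to 7.30%) of the other peaks away from starts and 1.11% (0.736 to 1.59%) of island-like windows without a peak. CATTGTT, a site of Sox factors, was in 7 (1.81%, 0.730 to 3.69%) against 9.87% and 2.69%. TCAAGGTCA, the site of Esrrb, was in 1 (0.258%) against 3.90% and 0.395%. CTTTGAT, the site of Tcf factors, was in 19 (4.91%, 2.98 to 7.56%) against 10.8% and 3.48%. TTCNNNGAA, the site of Stat factors, was in 42 (10.9%, 7.93 to 14.4%) against 16.4% and 7.07% (6.10 to 8.14%), with intervals that overlap the windows without a peak. GGGTGTGGC, a CACC box bound by Klf4, was in 7 (1.81%, 0.730 to 3.69%) against 2.86% (2.57 to 3.17%) and 1.03%. The octamer, Sox, Esrrb and Tcf words were also less frequent in island-like windows without a peak than at the other peaks away from starts.

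**Figure D5:**
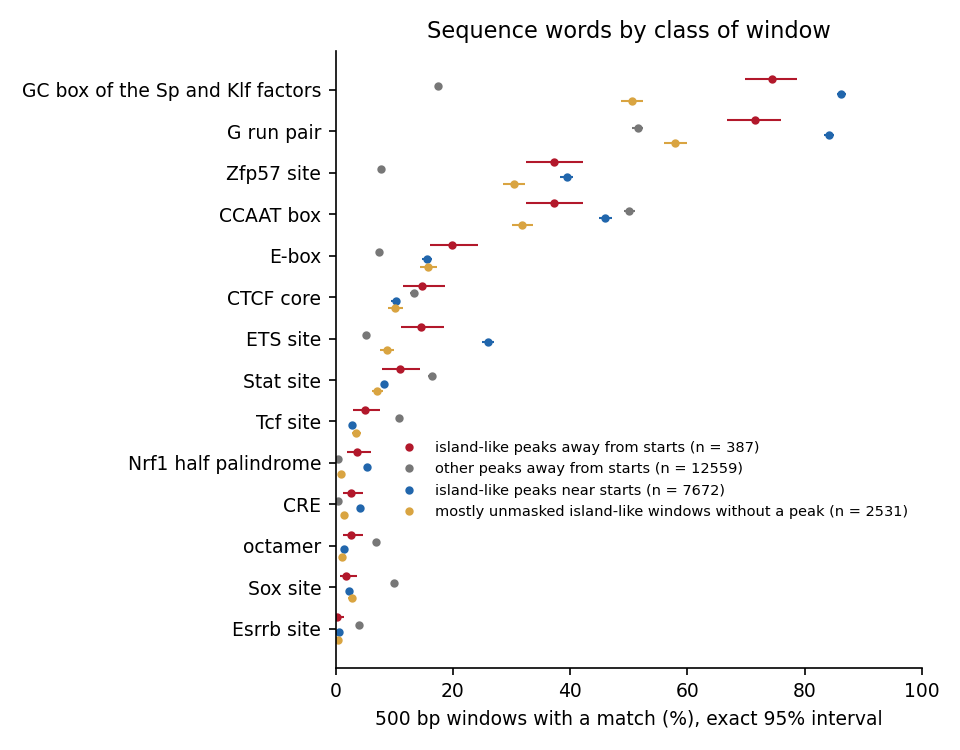
Share of 500 bp windows with at least 1 match to each of 14 words, on both strands (horizontal axis, %), with exact 95% intervals as lines, for the distal island peaks (red), other peaks away from starts (grey), island-like peaks near starts (blue) and mostly unmasked island-like windows without a peak (gold). The GC box is the word with the widest gap between the distal island peaks (74.4%) and windows without a peak (50.5%).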

How the data were processed

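ALaP-seq of 4 samples (2 H2O2+, 2 H2O2-) was deposited by the authors as 1 merged peak list without values per peak. Trimming used Trimmomatic, alignment bowtie2 2.3.5.1 (-N1) on repeat-masked mm10, and bedtools took out blacklisted and greylisted regions, all as the series' design text states. The way peaks were called and merged was not given in the sources used here.

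Peaks were joined to GRCm38.p6 and to GENCODE M21 transcript 5' ends with Python 3.11.15, numpy 2.4.6, pandas 2.3.3 and scipy 1.17.1. RefSeq served for further starts and transfer RNA genes, and near-identical copies were sought with blastn 2.17.0. The scan and the intervals were tested on simulated data. Medians carry order-statistic intervals and shares exact Clopper-Pearson intervals; no test across samples was possible. Genes named were drawn from those of the 20 widest peaks, the 10 highest CpG ratios, up to 6 peaks per gene list, the 5 genes with the most distal island peaks, the 5 distal island peaks with the most others within 50 kb, the 3 peaks on each side of every threshold, the 10 widest in coding exons, and up to 6 with a copy at a start; Kdm6b, Fat1, Pla2g10, Mga, Id3, Spry2, Smad7 and some smaller peaks were named after their values were seen. The regions, lists and words were chosen with earlier results of these data known. Transfer RNA genes and the breakdowns by masking and of words by composition were added after seeing the data.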

Additional observations from a re-analysis of the deposited data

How the results depend on the processing

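The number of distal island peaks depends on the cut-offs. From 387 it went to 238 at more than 5 kb from starts, 195 at a CpG ratio of 0.75, 613 with a 200 bp window, 252 with a 1000 bp window, 197 among peaks at or above the list's median width and 606 with starts of protein-coding genes only. Their median width, 225 bp (208 to 256) at the main setting, was 204 bp with the 200 bp window. It was 246 bp with starts of protein-coding genes only, and 214 to 235 bp at the other settings. The share of island-like stretches with a peak went from 8.14% to 10% at more than 1 kb, 6.03% at more than 5 kb, 4.51% at GC of 50%, 6.78% and 15.0% at ratios of 0.50 and 0.75, 3.24% and 14% with windows of 200 and 1000 bp, 4.23% with wide peaks only, 10.3% with protein-coding starts only and 17.8% for mostly unmasked stretches. Changes of less than 1.5 times in the number were 564 at more than 1 kb, 500 and 272 at GC of 50% and 60%, 579 at a ratio of 0.50 and 373 without near-identical copies; the share was 8.67% at GC of 60% and 8.01% with an overlap of 50 bp. No paired analysis was possible because the merged list names no sample, and for the same reason no replicate could be left out. Peak width is no measure of signal, and peaks from H2O2- samples cannot be told from those of H2O2+ samples.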
